A study of Mus musculus with 12 samples.

Results

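STAT5 binding at the Bcl6 locus was read from ChIP-seq of mouse embryonic fibroblasts, which are connective tissue cells cultured from fetuses. ChIP-seq sequences the DNA that an antibody pulls down with a protein, and a region is a stretch that a peak caller found enriched. A region was counted as part of the locus when its centre lay between 23.85 and 24.15 Mb on chromosome 16 of build mm9. This 300 kb window holds Bcl6 (24 kb), 161 kb upstream of it and 115 kb downstream. Of 156642 regions in the 3 lists analysed, 54 lay in this window: 5 of 13278 in wild-type cells, 23 of 71561 in overexpression replicate 1 and 26 of 71803 in overexpression replicate 2. The window was set around the gene and not by the number of regions in it, though earlier results of these data were known when it was chosen. Bcl6 was taken to span about 23.965 to 23.989 Mb on the minus strand, known here to the nearest kb, so transcription runs towards lower coordinates and upstream sequence has higher ones. Distances from the 5′ end run from 23.989 Mb to the centre of a region or site, so they are no more exact than that.

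The wild-type cells carry intact Stat5. The overexpressing cells lack Stat5 (Stat5-/-) and express STAT5A, and the labels do not say which promoter drives it or whether the line is a single clone. Both kinds of cell came from 12.5- to 13.5-day fetuses on a C57BL/6 background and were used at passage 9 to 10. They spent 5 h in serum-free medium before 45 min with 1 µg/ml growth hormone, and the lists are named for stimulated cells. The labels also attach the replicate 2 list to the unstimulated STAT5 library of the repeat, so what part that library had in it is not known. The series has 12 libraries, and those of unstimulated cells, of Stat5-/- cells without STAT5A and of control IgG were not analysed here, so no background level stands beside these regions. Wild type is 1 library, and the labels do not say whether the overexpression replicates came from separate cultures. The lists hold positions without a height, score or p-value, and the depth of each library is unknown.

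The transcription factors STAT5A and STAT5B become phosphorylated after growth hormone, prolactin or interleukin signalling, pair up and bind DNA at palindromes of the form TTC, a short spacer and GAA. BCL6 is a zinc finger repressor, best known for keeping germinal centre B cells in their state, and it binds sequences that resemble the STAT site, so both proteins can meet at the same DNA. In lymphocytes Bcl6 is known as a gene that STAT5 represses. These data hold binding alone, with no RNA from the cells. In RefSeq order on GRCm38.p6 the nearest protein-coding genes are Rtp2, a receptor-transporting protein gene, and Sst, which encodes the hormone somatostatin, on the downstream side of Bcl6, and Lpp, which encodes a focal adhesion protein, on the upstream side. The lncRNA gene Gm31527 comes next to Bcl6 on the upstream side.

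RefSeq gives 2 starts for Bcl6, and the promoter of each is shown because regions of all 3 lists lay at the gene's 5′ end and because the STAT recognition sequence occurs in both. The sequences are from GRCm38.p6, chromosome 16, minus strand, and run from 250 bases before to 50 bases after the start. Capitals mark TTCNNNGAA.
Bcl6 first start: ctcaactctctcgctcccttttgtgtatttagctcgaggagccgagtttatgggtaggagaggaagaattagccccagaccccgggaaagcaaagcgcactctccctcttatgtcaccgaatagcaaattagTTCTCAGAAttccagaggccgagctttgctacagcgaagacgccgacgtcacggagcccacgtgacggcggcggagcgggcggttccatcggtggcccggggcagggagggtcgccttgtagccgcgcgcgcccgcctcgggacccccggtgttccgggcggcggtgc
Bcl6 second start: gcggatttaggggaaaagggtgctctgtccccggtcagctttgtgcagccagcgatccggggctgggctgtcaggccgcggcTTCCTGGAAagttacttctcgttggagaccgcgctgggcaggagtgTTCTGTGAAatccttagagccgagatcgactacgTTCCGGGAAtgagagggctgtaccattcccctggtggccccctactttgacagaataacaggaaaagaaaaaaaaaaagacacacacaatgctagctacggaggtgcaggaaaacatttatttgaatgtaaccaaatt

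The upstream promoter (first start) holds TTCNNNGAA 1 time, as TTCTCAGAA, whose first base lies 118 bases before the start. The promoter of the second start, which lies inside the gene, holds it 3 times, as TTCCTGGAA, TTCTGTGAA and TTCCGGGAA, starting 168, 122 and 88 bases before the start. TTCNNNGAA reads the same on both strands, as do the other sequences searched. Among 32851 promoters of this length, 8.30% had at least 1 match, and 11 promoters (0.033%), belonging to 10 genes with Bcl6 among them, had 3 matches or more. The stricter TTCCNGGAA, which is contained in TTCNNNGAA, was absent from the first promoter and occurred 2 times in the second. Of all promoters, 1.15% had at least 1 match to it and 9 (0.027%) had 2 or more. The palindrome with a spacer 1 base longer (TTC, 4 bases of any kind, GAA) occurred in 6.95% of promoters and in neither of Bcl6. These are matches of letters in a window on GRCm38.p6. The sequence of the regions themselves on mm9 was not analysed here, and neither promoter was placed relative to a called region.

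Regions were called at the 5′ end of Bcl6 in every list, as a single broad region in wild type and in replicate 2 and as several narrower ones in replicate 1. In wild-type cells a region of 828 bp lay at 23988403 to 23989230 on chromosome 16, at the gene's 5′ end. Its width ranked 20th among the 13278 wild-type regions (the widest 0.151%). In overexpression replicate 2 a single region at 23987541 to 23989574 was 2034 bp wide and contained the whole wild-type region. It ranked 30th of 71803 (the widest 0.0418%). Replicate 1 split the same stretch into 3 regions of 448, 679 and 379 bp, the last pair with 11 bp between them, which together covered 1506 bp. Its list is cut more finely throughout: 18.0% of its neighbouring regions lay within 20 bp of each other, against 1.83% in wild type and 0.216% in replicate 2. A rank by width in replicate 1 is therefore not comparable. The widths of 448, 679 and 379 bp were in the widest 38.8%, 9.09% and 53.1% of that list, and with the 5′ end known to 1 kb the region that crosses it cannot be singled out.

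The site formed by merging these regions spanned 2142 bp and was among the broadest that the 3 lists have in common. Of 2984 merged sites present in all lists, it ranked 33rd by the bases covered in the list that covered least of it, here the 828 bp of wild type, which puts it in the top 1.11%. By the bases covered in each list it ranked 55th in wild type, 67th in replicate 1 and 24th in replicate 2. This ranking was chosen after the widths had been seen, and width is not a measure of binding strength. The wild-type summit, at 23988825, lay 125 bp from the nearest replicate 1 summit. Replicate 2 lists no summits.

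**Figure D1:**
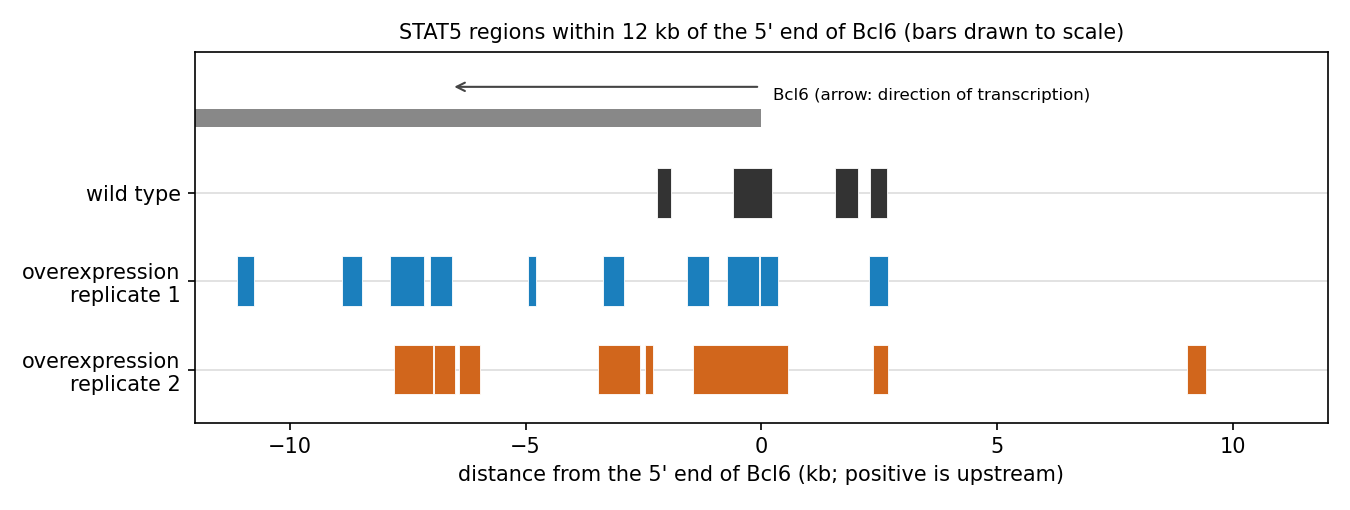
Regions within 12 kb of the 5′ end of Bcl6 in each list, drawn to scale against distance from the 5′ end in kb (positive values are upstream), with the gene as a grey bar. All lists have regions at the 5′ end, with 828 bp in wild type, 1506 bp in 3 regions in replicate 1 and 2034 bp in 1 region in replicate 2, and all have a region about 2.5 kb upstream.

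The other site common to all lists lay 2.48 kb upstream of the 5′ end. Its regions were narrow, with 368 bp in wild type at 23991293 to 23991660, 408 bp in replicate 1 at 23991273 to 23991680 and 329 bp in replicate 2 at 23991360 to 23991688. The wild-type region lay wholly inside that of replicate 1, and 81.8% of it was covered in replicate 2. The summits of wild type and replicate 1 were 80 bp apart. The edges in the 3 lists were thus less than 100 bp apart, at widths close to the medians of the whole lists (379, 398 and 378 bp).

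Of the remaining 3 wild-type regions, 2 overlapped neither replicate. At 23990553 to 23991050, 1.80 kb upstream, a wild-type region of 498 bp overlapped no overexpression region, although the nearest in replicates 1 and 2 began 222 and 309 bp away. At 23986793 to 23987080, 2.06 kb into the gene, a region of 288 bp was likewise unmatched, with gaps of 352 bp to replicate 1 and 92 bp to replicate 2. At 23898753 to 23899070, 90.09 kb downstream of the 5′ end and outside the gene, a region of 318 bp overlapped replicate 2 over 64.2% of its length, and the nearest replicate 1 region was 78651 bp away. In all, 2 of 5 wild-type regions (40.0%, 95% exact binomial interval 5.27 to 85.3%) overlapped both replicates, where 23.3% of the whole wild-type list did. At least 1 replicate was met by 3 of 5 (60.0%, interval 14.7 to 94.7%), against 38.9% of the whole list. With 5 regions these shares cannot be told from those of the list.

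In every list regions were denser near the 5′ end than over the window. Within 10 kb of the 5′ end on either side lay 4 of the 5 wild-type regions, 9 of 23 in replicate 1 and 8 of 26 in replicate 2. That is 20, 45 and 40 regions per 100 kb, against 1.67, 7.67 and 8.67 over the whole window. The finer cutting of replicate 1 adds to its numbers. Whether the share near the 5′ end differs between wild type and the overexpressing cells was not tested, and this 20 kb stretch was chosen after the positions were seen. Of 120364 tiles of 20 kb on the autosomes, 0.018% held as many wild-type regions, 0.11% as many of replicate 1 and 0.042% as many of replicate 2, where means were 0.109, 0.581 and 0.583 regions per tile. Those tiles lie on a fixed grid and were not centred on a gene's 5′ end, so the shares describe how dense the locus is and are no test. Inside the gene, whose bounds were set by the rule, were 2, 8 and 6 regions. Of autosomal tiles of 24 kb, the length of the gene, 1.5%, 0.37% and 0.70% held at least that many.

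Regions in the gene lay in its 5′ part. None of the 3 lists had a region between 23.965 Mb and the replicate 1 region at 23977883 to 23978240, which lay 10.94 kb into the gene. Next to the 5′ end site, the main stretch in the gene was a site of 1372 bp whose centre was 7.18 kb from the 5′ end. Replicate 1 had regions of 718 and 469 bp there, and replicate 2 had regions of 814 and 455 bp. Wild type had none. A further site 3.02 kb into the gene held 428 bp in replicate 1 and 900 bp in replicate 2, again without a wild-type region. Replicate 1 alone had 3 regions in the gene, of 189 to 428 bp, and replicate 2 alone had 2, of 158 and 454 bp.

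Far upstream, both replicates had regions at 5 places between 73.19 and 150.62 kb from the 5′ end, and wild type had none there. A missing wild-type region is the usual case, since 6.55% of all replicate 1 regions and 5.25% of all replicate 2 regions overlapped wild type. The most distant in position, centred 150.62 kb upstream, covered 1006 bp in 3 regions of replicate 1 and 764 bp in 1 region of replicate 2. At 124.32 kb upstream replicate 1 covered 947 bp in 2 regions and replicate 2 covered 453 bp. At 107.97 kb upstream replicate 1 covered 1576 bp in 3 regions and replicate 2 covered 957 bp in 1 region, which made it the widest of these sites at 1598 bp. It had a neighbour 105.99 kb upstream of 648 and 501 bp. The site with the least coverage lay 73.19 kb upstream, with 318 and 368 bp. No wild-type region was listed upstream of the site at 2.48 kb within the window, and the next one beyond the window began at 24334276. Which gene these distant sites belong to is not known from positions alone, since the lncRNA genes Gm31527, Gm46545 and Gm31583 follow Bcl6 in RefSeq order on this side.

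**Figure D2:**
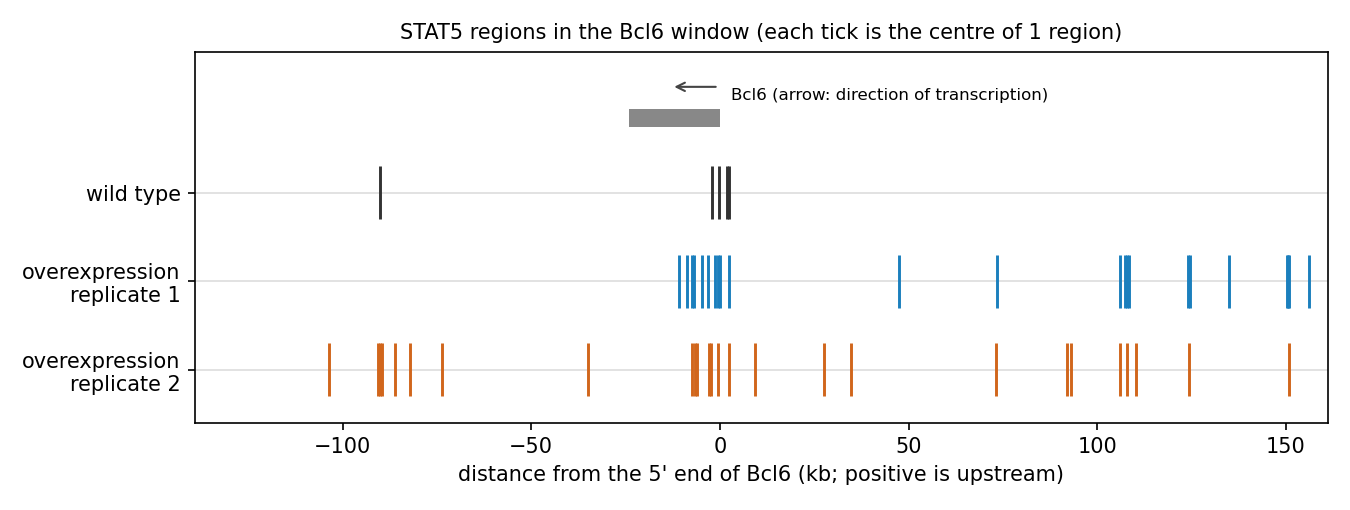
Centres of all 54 regions in the 300 kb window, by list, against distance from the 5′ end of Bcl6 in kb (positive values are upstream), with the gene as a grey bar. Wild-type ticks lie near 0 apart from 1 at 90.09 kb downstream, both replicates have ticks from 73 to 151 kb upstream, and downstream of the gene replicate 2 has 8 ticks and replicate 1 has none.

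The replicates differed most on the downstream side, towards the neighbours Rtp2 and Sst. In the 115 kb between the start of the window and the 3′ end of the gene, replicate 2 had 8 regions and replicate 1 had none. Those of replicate 2 were 180 to 444 bp wide, and 7 of the 8 lay between 103.53 and 73.55 kb from the 5′ end. The group of 3 near 90 kb included the region that overlapped wild type. In replicate 1 no region lay between 23820102 and 23977882, a gap of 158 kb. Gaps this long or longer made up 3.31% of the 69900 gaps on autosomes (2313 gaps). Such gaps held a median of 2 replicate 2 regions, and 72 of them (3.11%) held 8 or more. The stretch was picked because the lists differed there. The gap also held 1 wild-type region. Depth, the caller and the control library may differ between these lists, and their part in this difference was not tested.

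Over the window, 17 of 23 replicate 1 regions (73.9%, interval 51.6 to 89.8%) overlapped a replicate 2 region, against 51.9% of the whole replicate 1 list. In the other direction 10 of 26 replicate 2 regions (38.5%, interval 20.2 to 59.4%) overlapped replicate 1, against 43.1% of the whole list. Both intervals contain the share of the whole list, the first close to its lower end. They take regions as independent, which those that meet the same region of the other list are not, so they may be too narrow. In the 2 flanking windows of 300 kb the shares were 74.3% (26 of 35) for replicate 1 and 58.8% (20 of 34) for replicate 2, so the high share of replicate 1 was found next to the Bcl6 window as well. The 3 wild-type regions of the flanks all overlapped both replicates. A broad replicate 2 region can meet several narrow ones of replicate 1, and the 17 regions of replicate 1 matched 10 of replicate 2. Wild type overlapped 3 of 23 replicate 1 regions (13.0%, interval 2.78 to 33.6%) and 3 of 26 replicate 2 regions (11.5%, interval 2.45 to 30.2%), against 6.55% and 5.25% of the whole lists. Merging all lists gave 33 sites in the window: 2 in all lists, 7 in both replicates without wild type, 1 in wild type and replicate 2, 2 in wild type alone, 6 in replicate 1 alone and 15 in replicate 2 alone. Sites in both replicates without wild type were 21.2% of those in the window and 24.1% of the 113354 in the genome, and sites in all lists were 6.06% and 2.63%. Sites in replicate 2 alone were 45.5% in the window and 35.3% in the genome, those in replicate 1 alone 18.2% and 29.1%, and those in wild type alone 6.06% and 7.15%. With 33 sites the shares in the window are imprecise, and their differences from the genome were not tested.

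By number of regions, the Bcl6 window was above the mean of the genome in every list, while counting error left its difference from the adjoining windows undecided. The 300 kb window on the downstream side held 0 wild-type regions, 10 of replicate 1 and 9 of replicate 2. The window on the upstream side held 3, 25 and 25. Against the mean of these flanking windows, the Bcl6 window had 3.33 times as many regions in wild type (exact 95% interval 0.649 to 21.5), 1.31 times in replicate 1 (0.741 to 2.29) and 1.53 times in replicate 2 (0.881 to 2.63). All 3 intervals, which cover counting error only, include equal numbers and also ratios above 2. With 5 flanking windows on each side the ratios were 2, 1.36 and 1.58, so the wild-type value rests on how many neighbours are counted. The 10 nearest windows, 5 on each side, averaged 2.5, 16.9 and 16.5 regions, themselves above the autosomal means of 1.63, 8.71 and 8.74. They ranged from 0 to 5 regions in wild type, 3 to 26 in replicate 1 and 8 to 32 in replicate 2. The Bcl6 window exceeded 9 of the 10 for wild type and 6 and 9 of them for replicates 1 and 2.

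Against 8006 such windows on the autosomes, it had 3.06, 2.64 and 2.97 times the mean number (wild type and replicates 1 and 2, with means of 1.63, 8.71 and 8.74). As many regions or more were found in 7.21% of wild-type windows and in 7.66% and 4.27% of those of the replicates, and 93 windows reached the numbers of Bcl6 in every list. Among the 314 windows of chromosome 16 it ranked 8th in wild type, 23rd in replicate 1 and 13th in replicate 2, with ties sharing a rank. Covered length gave a similar picture. Wild-type regions covered 2.30 kb of the window and those of replicates 1 and 2 covered 9.91 and 12.9 kb, or 3.58, 2.70 and 3.41 times the mean window.

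**Figure D3:**
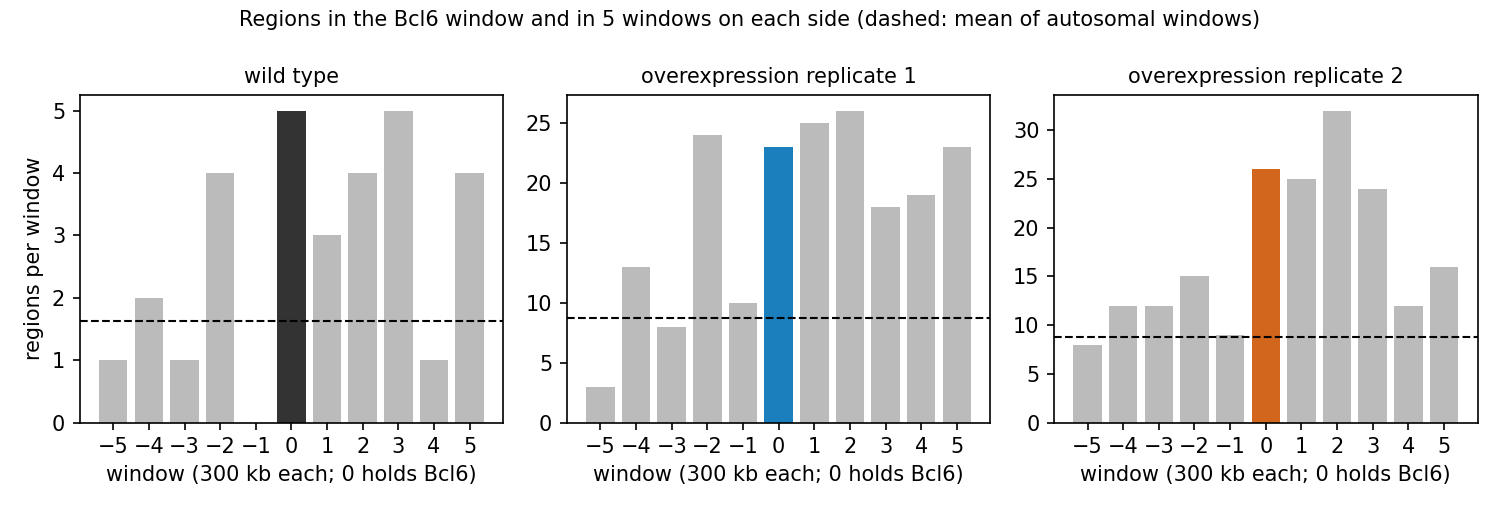
Number of regions in the Bcl6 window (coloured, position 0) and in 5 windows of 300 kb on each side (grey, upstream to the right), 1 panel per list with its own vertical axis, and the mean of autosomal windows as a dashed line. The Bcl6 bars of 5, 23 and 26 regions stand above the dashed lines at 1.63, 8.71 and 8.74, as do several neighbours on both sides.

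Numbers most like those of Bcl6, by the summed absolute difference in log2(number + 1) over the 3 lists, were found in windows on other chromosomes. The window from 68.25 to 68.55 Mb on chromosome 18 had 5, 23 and 25 regions (difference 0.05). That from 71.85 to 72.15 Mb on chromosome 6 had 5, 23 and 28 (difference 0.10), and that from 155.85 to 156.15 Mb on chromosome 2 had 5, 22 and 27 (difference 0.11). The likeness is over 3 values and says nothing of where in the window the regions lay.

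By their medians, regions at Bcl6 were of ordinary width, though some away from the 5′ end site were wide for their list. The median was 368 bp in wild type (range 288 to 828 bp, n = 5), 408 bp in replicate 1 (189 to 718 bp, n = 23) and 404 bp in replicate 2 (158 to 2034 bp, n = 26), against 379, 398 and 378 bp for the whole lists. Above the median of their own list were 2 of 5, 12 of 23 and 16 of 26 regions. After the region at the 5′ end, the widest of replicate 2 were 957 bp, 107.83 kb upstream, and 900 bp, 3.02 kb into the gene. The widest of replicate 1 was the region of 718 bp 7.51 kb into the gene, at 23981133 to 23981850, followed by 708 bp at 108.42 kb upstream. These were in the widest 6.89% and 7.45% of its list. Wide regions of both replicates thus lay at the 5′ end, about 7 kb into the gene and about 108 kb upstream, and replicate 2 had a further one of 764 bp 150.79 kb upstream.

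**Figure D4:**
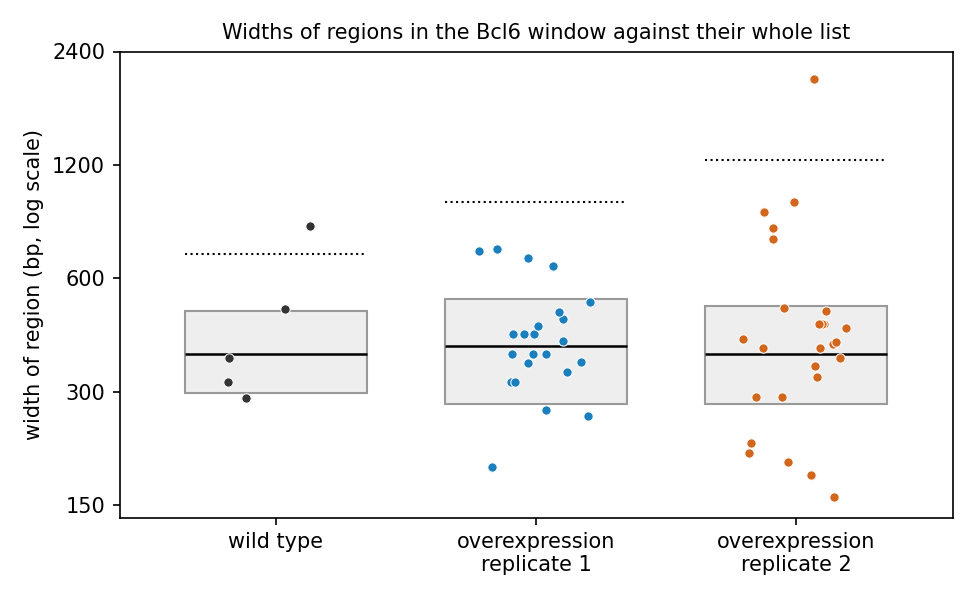
Width of each region in the Bcl6 window (points, log scale in bp) over the whole list it comes from, shown as the quartiles (box), the median (solid line) and the highest 1% (dotted line). The regions of 828 bp in wild type and 2034 bp in replicate 2 lie above the dotted lines, and most others lie in or near the boxes.

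No region lay across an edge of the window, but the windows of 300 kb that followed upstream were also dense. They held 3, 25 and 25 regions and then 4, 26 and 32 (wild type, replicates 1 and 2). Inside the Bcl6 window, the region nearest the upper edge was one of replicate 1 at 24144893 to 24145231, its centre 4.94 kb from the edge. The other distances from an edge given here are also to the centre of a region. The nearest outside it was one of replicate 2 at 24172725 to 24173100, 22.9 kb away. At the lower edge the nearest inside was a replicate 2 region of 415 bp, 35.5 kb from the edge. The nearest outside were overlapping regions of both replicates, of 609 and 437 bp, about 30 kb away.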

How the data were processed

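STAT5 ChIP-seq in mouse embryonic fibroblasts was read from the 3 region lists of growth hormone-stimulated cells (wild type, overexpression replicates 1 and 2). The values are start, end and, except in replicate 2, summit positions on mm9, as deposited by the authors. Replicate 2 was called with MACS, per the file headers and region names. For the other lists the caller, and for all lists the aligner, thresholds and controls, are not stated in the sources used. The labels attach the replicate 2 list, whose track is named for the stimulated repeat, to its stimulated and unstimulated STAT5 libraries, with no IgG. All regions of wild type and replicate 1 at Bcl6, and 1 of 26 of replicate 2, lie on a 10 bp grid. The replicate 2 positions at Bcl6 were thus made in a different way from the others. The grid was not counted over whole lists. The nearest wild-type regions outside the window, starting at 23543916 and 24334276, do not share the last digit of the wild-type starts inside it.

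Positions were read as BED intervals and printed counted from 1. Regions overlapping by at least 1 bp counted as shared. Intervals are 95% exact (Clopper-Pearson), take regions as independent and cover counting error only. For window counts the genome was tiled at 300 kb in step with the Bcl6 window, between the first and last region of each autosome. No test was made, since wild type is 1 library and regions of a list are not replicates. Named were every wild-type region, every site in both replicates, the widest region of each list, that nearest the 5′ end and the 3 windows most like it. The window, these rules and the alternatives were chosen with earlier results of these data known. Pathway genes planned for comparison were not analysed, because no mm9 annotation was at hand. In the promoter table, 1627 of 1627 overlapping pairs on opposite strands matched as reverse complements, so sequences read along the gene. The overlap functions were tested on simulated data, and 12 overlap counts equalled those of bedtools 2.31.1. Scripts used matplotlib 3.10.9, scipy 1.17.1, pandas 2.3.3, numpy 2.4.6 and Python 3.11.15.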

Additional observations from a re-analysis of the deposited data

How the results depend on the processing

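Of 61 alternative values, 46 stayed within the interval of the reported value or within 1.5 times of a number, 15 moved, and none changed a direction that had been tested, since none was. Among the 46, 25 were shares of overlapped regions. Many intervals were wide, so staying within them says little about stability. That for wild-type regions in both replicates was 5.27 to 85.3%, and that for the wild-type ratio to the flanking windows was 0.649 to 21.5. Counting regions that touch the window changed no number. In the gene alone the numbers of 5, 23 and 26 regions were 2, 8 and 6, and in the wider part of each list (at or above its median width) 2, 12 and 16, both by construction. The ratios to the flanking windows of 1.31 in replicate 1 and 1.53 in replicate 2 were 2.74 and 3.12 against all windows of chromosome 16 and 2.64 and 2.97 against those of the autosomes. Replicate 1 regions matched replicate 2 in 73.9% of cases, which became 21.7% when the overlap had to fill at least 50% of each region and 34.8% for centres no more than 200 bp apart. For replicate 2 regions 38.5% became 19.2% under the 50% rule. Leaving out replicate 1 or replicate 2, the share of wild-type regions overlapped was 40.0% to 60.0%. The median width in replicate 2, 404 bp, was 634 bp in the gene alone, and the mean was 495 bp. The wild-type ratio of 3.33 was 2 with 5 flanking windows on each side, 2.94 against chromosome 16 and 3.06 against the autosomes. Joining neighbours under 50 bp apart, chosen after seeing the data, left 5, 17 and 25 regions. The ratios to the flanking windows were then 3.33, 1.13 and 1.47. After joining, 64.7% of replicate 1 regions and 36.0% of replicate 2 regions matched the other replicate. No paired analysis was possible because wild type is 1 library and shares only 1 replicate number with the overexpressing cells. Depth is unknown for every library and limits any reading of the numbers.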
